A study of Homo sapiens with 16 samples.

Results

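A set of 10 genes of amino acid uptake and exchange was followed in RNA from P493-6 cells, an immortalised human B cell line whose MYC transgene is switched down by doxycycline. The genes were chosen by symbol, with earlier results of these data known. All 10 were found among the 58051 gene identifiers of the table and passed the filter on low values that left 13765 genes. They are SLC7A11, SLC3A2, SLC7A5, SLC7A1, SLC7A6, SLC1A4, SLC1A5, SLC38A1, SLC38A2 and SLC43A1. The study asked how the response to blocking N-myristoyltransferase (NMT), the enzyme that attaches myristate to the N-terminal glycine of proteins, depends on the level of MYC.

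There were 4 groups of 4 libraries. High MYC cells were first kept in ordinary medium for 24 h. High MYC controls then received DMSO, and high MYC inhibitor cells received 100 nM of the NMT inhibitor IMP1088 in its place for 24 h. Medium MYC controls and medium MYC inhibitor cells had the same 24 h treatments, after 24 h in medium with 0.1 µg/mL doxycycline and 1 µM β-estradiol. In P493-6 cells estradiol also switches on the viral factor EBNA2, so MYC level, doxycycline and estradiol cannot be told apart. The labels do not say whether replicates were separate cultures, so p-values measure the spread between these libraries, which may be technical.

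Cells take up amino acids through families of membrane carriers. SLC3A2 (4F2hc, CD98) is a glycoprotein heavy chain that brings light chains such as SLC7A5, SLC7A6 and SLC7A11 to the cell surface, and these light chains exchange one amino acid for another. SLC1A5, SLC38A1 and SLC38A2 carry glutamine into the cell, SLC1A4 carries serine, alanine and other small neutral amino acids, SLC7A1 carries arginine and lysine, and SLC43A1 lets large neutral amino acids pass without exchange. Activated and MYC-driven lymphocytes are known for high uptake of leucine and glutamine. Several of these genes are also known targets of ATF4, the transcription factor made when the kinase GCN2 senses uncharged transfer RNA or when related kinases sense other stress.

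Sequence near the start sites is shown first, because 2 factors known to act on these genes, ATF4 and MYC, bind short recognisable motifs. RefSeq promoters on GRCh38.p14, each a window of 300 bases that ends 50 bases after a start site, were found for 9 of the 10 members (16 windows), and SLC7A11 had no entry. The motif TGATGNAA, the core of the C/EBP-ATF response element through which ATF4 acts, stood on either strand in 1 window each of SLC3A2, SLC7A1, SLC1A4, SLC1A5 and SLC38A1. It stood in 5 of the 16 windows, and in 3.62% of all 35116 promoter windows. Each line gives the gene and 30 bases of its strand, 5′ to 3′, with the motif in capitals.
SLC3A2: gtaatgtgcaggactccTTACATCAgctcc
SLC7A1: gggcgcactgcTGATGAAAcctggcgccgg
SLC1A4: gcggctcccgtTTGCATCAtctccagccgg
SLC1A5: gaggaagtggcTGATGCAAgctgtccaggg
SLC38A1: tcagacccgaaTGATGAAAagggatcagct

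The SLC3A2 stretch is chr11:62881719-62881748 on the plus strand with the motif on the opposite strand, at position 38 from the start site of its window. That of SLC7A1 is chr13:29595663-29595692 on the minus strand, with the motif at position 8. The SLC1A4 stretch is chr2:64989381-64989410 on the plus strand, with the motif on the opposite strand at position -7. Those of SLC1A5 (chr19:46784893-46784922, position -97) and SLC38A1 (chr12:46266502-46266531, position -4) are on the minus strand. The E-box CACGTG, the palindrome that MYC with its partner MAX binds, stood in 1 window each of SLC7A5, SLC1A5 and SLC43A1. It was in 3 of the 16 windows and in 7.26% of all windows, and it is in capitals here.
SLC7A5: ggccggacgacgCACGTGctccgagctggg
SLC1A5: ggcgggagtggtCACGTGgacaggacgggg
SLC43A1: cagcgggcgagtCACGTGcgcgtgaaactc

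These stretches are chr16:87869620-87869649, chr19:46787326-46787355 and chr11:57515797-57515826, all on the minus strand. The antioxidant response element core TGACNNNGC, bound by NRF2, stood in 5 of the 16 windows and in 13.3% of all windows. The windows of SLC38A2 held none of the 3 motifs. For SLC3A2, SLC1A4, SLC1A5 and SLC38A1 the printed stretches lie in windows of start sites inside the gene. Their outermost windows held neither TGATGNAA nor CACGTG. These are chr11:62855859-62856158, chr2:64988229-64988528, chr19:46788545-46788844 and chr12:46267938-46268237. A match describes letters in these windows and was not tested as a binding site.

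Values below are normalized counts, meaning reads divided by 1 factor per library. A call means a limma adjusted p under 0.05 over all 13765 tested genes on log2(value + 1), and every log2 change is on that scale. Library depth ran from 8755296 to 13858534 reads. MYC itself lay between 29693 and 34375 in high MYC controls and between 904 and 1022 in medium MYC controls. With the inhibitor it lay between 46843 and 48049 at high MYC and between 1328 and 1444 at medium MYC. The B cell markers MS4A1, CD79A, CD79B, PAX5 and CD22 were above 0 in every library, with sums of 18874 or more. RNA came from whole cultures, so fewer cells of a kind and less RNA per cell cannot be told apart.

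With the inhibitor at medium MYC, 7 of the 10 transporters rose and none fell, with a median log2 change of 0.35. At high MYC none rose and 3 fell, with a median of -0.05. Of all tested genes, 26.3% were called at medium MYC (11.7% higher and 14.6% lower) and 26.8% at high MYC (10.5% higher and 16.3% lower), with medians of -0.01 and -0.02. The response itself differed between MYC levels for 8 of the 10 members, each with the lower value at high MYC, where 8.63% of all genes differed, 5.33% in that direction and 3.31% in the other. The inhibitor groups and their controls did not overlap for 8 of the 10 members at medium MYC (27.9% of all genes) and for 3 of 10 at high MYC (26.7% of all genes). Because the members were chosen with earlier results of these data known, counts above the share of all genes are no independent evidence. Of the 5 B cell markers, 3 fell with the inhibitor at medium MYC and 4 at high MYC. At medium MYC their sums lay between 37963 and 38720.2 in controls and between 33532 and 34737 with the inhibitor. At high MYC they lay between 23284 and 23454 and between 18874 and 19840.1. Of the 2 tested markers in each other list, T cell markers fell for 2 at medium MYC and 1 at high MYC, and fibroblast markers for 1 at each level. Myeloid markers rose for 1 at medium MYC and fell for 1 at high MYC, and no epithelial marker was called. The summed T cell markers lay between 40.8 and 52.2 with the inhibitor at medium MYC and between 44.1 and 56.6 at high MYC, and the fibroblast sums between 497 and 537 and between 68.1 and 96.8. The part of these markers, and of MYC itself, in the transporters' response was not tested.

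**Figure D1:**
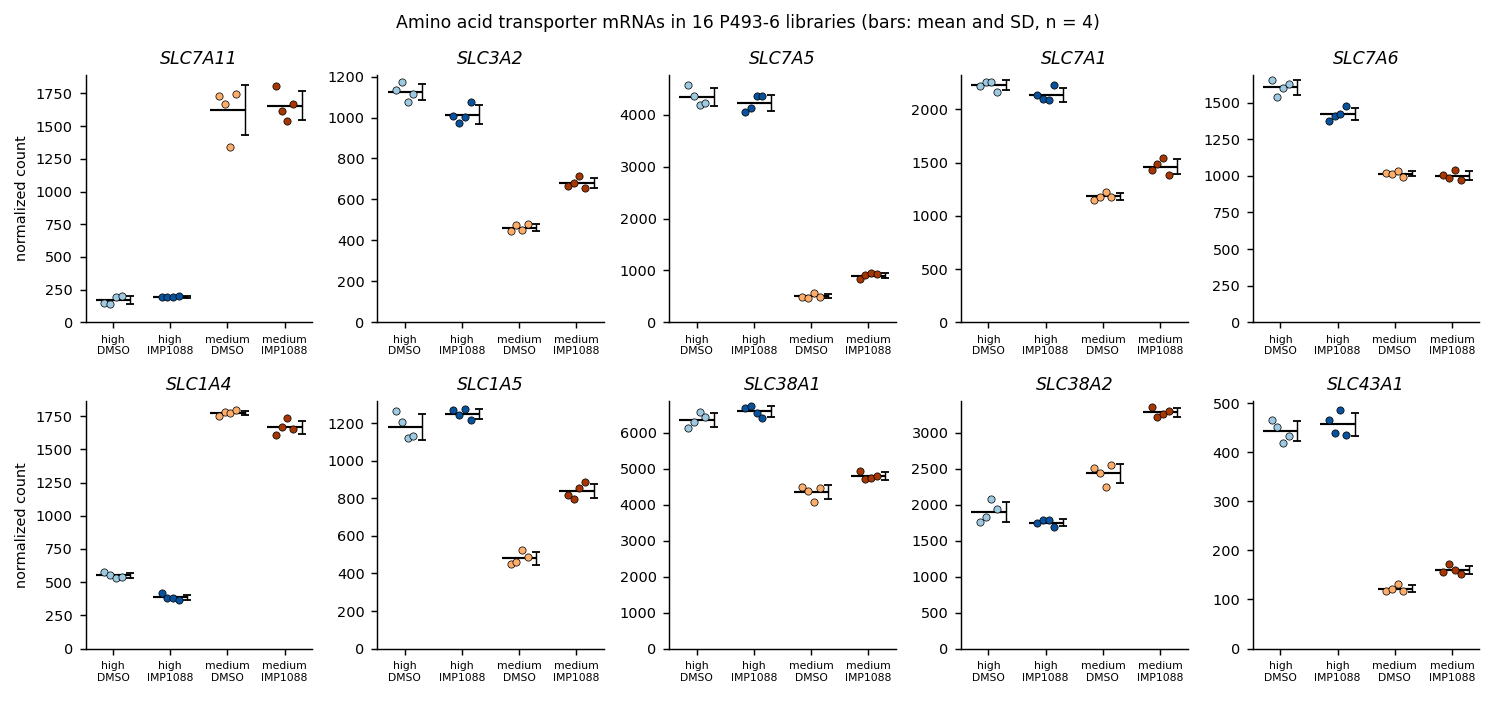
Normalized counts of the 10 transporters in each of the 16 libraries, by group. Points are libraries and bars are group means; SLC7A5 sits between 468 and 559 in medium MYC controls and between 825 and 948 with the inhibitor, whereas its high MYC groups overlap.

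SLC3A2, the shared heavy chain, measured 443, 475, 452 and 478 normalized counts in the medium MYC controls. With the inhibitor the values were 666, 680.5, 712 and 655. All 4 inhibitor libraries lay above all controls. The rise was 0.55 on the log2 scale (SE 0.04, limma adjusted p = 2.28e-09), or 1.47-fold. At high MYC the controls measured 1134, 1174, 1077 and 1117, and the inhibitor libraries 1009, 972, 1002 and 1077. There SLC3A2 fell by 0.15 (SE 0.04, limma adjusted p = 0.0117), with the highest inhibitor library just below the lowest control. That call was lost with a GC correction (adjusted p = 0.152) and with quantile normalization (0.0733). The difference between the responses was -0.70 (SE 0.06, limma adjusted p = 6.80e-08).

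SLC7A5 (LAT1), the light chain that imports leucine and other large neutral amino acids, had the largest rise among the members. It measured 486, 468, 559 and 495 in medium MYC controls and 825, 906, 948 and 926 with the inhibitor. The means were 502 ± 39.6 and 901 ± 53.8 (SD, n = 4 each). The log2 change was 0.84 (SE 0.05, limma adjusted p = 3.40e-11), 1.80-fold. At high MYC it measured 4571, 4368, 4193 and 4232 without and 4055, 4125, 4354 and 4365 with the inhibitor. These groups overlapped, and the change of -0.04 had a 95% interval from -0.14 to 0.06 (limma adjusted p = 0.62). The responses differed by -0.88 (SE 0.07, limma adjusted p = 2.55e-08).

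SLC7A6 (y+LAT2), a light chain that exchanges arginine for neutral amino acids, was called at high MYC and not at medium MYC. At medium MYC its controls (1016, 1015, 1032 and 994) and inhibitor libraries (1008, 983, 1040.3 and 968) overlapped. The change there was -0.02 with a 95% interval from -0.09 to 0.05 (limma adjusted p = 0.709). At high MYC it fell from 1657, 1537, 1599 and 1626 to 1375, 1406, 1424 and 1474, without overlap. The fall was 0.18 on the log2 scale (change -0.18, SE 0.03, limma adjusted p = 4.99e-04). The difference between responses, -0.16 (SE 0.05), was at limma adjusted p = 0.049 and was lost in 19 of 30 alternatives, 12 of them among the 16 fits without 1 library, so this call depended on the setting. On the opposite strand SLC7A6OS shares 44.4% of the exon bases of SLC7A6, and whether reads were counted by strand is not given in the sources used here, so its values are uncertain.

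SLC7A11 (xCT), the light chain that exchanges glutamate for cystine and so feeds glutathione synthesis, had no called response at either level. Medium MYC controls measured 1729, 1668, 1339 and 1746, and the inhibitor libraries 1806, 1616, 1536 and 1673. The change was 0.04 with a 95% interval from -0.17 to 0.24 (limma adjusted p = 0.82). High MYC controls measured 146, 138, 193 and 198, against 191, 192, 191 and 203 with the inhibitor. The controls fell into a lower and a higher pair, and the change of 0.22 (SE 0.10) had an adjusted p of 0.105 by limma. Without high MYC control replicate 3 the change was 0.29 (adjusted p = 0.0357) and without replicate 4 it was 0.30 (adjusted p = 0.0259). The responses differed by 0.18, with a 95% interval from -0.11 to 0.47 (limma adjusted p = 0.499).

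**Figure D2:**
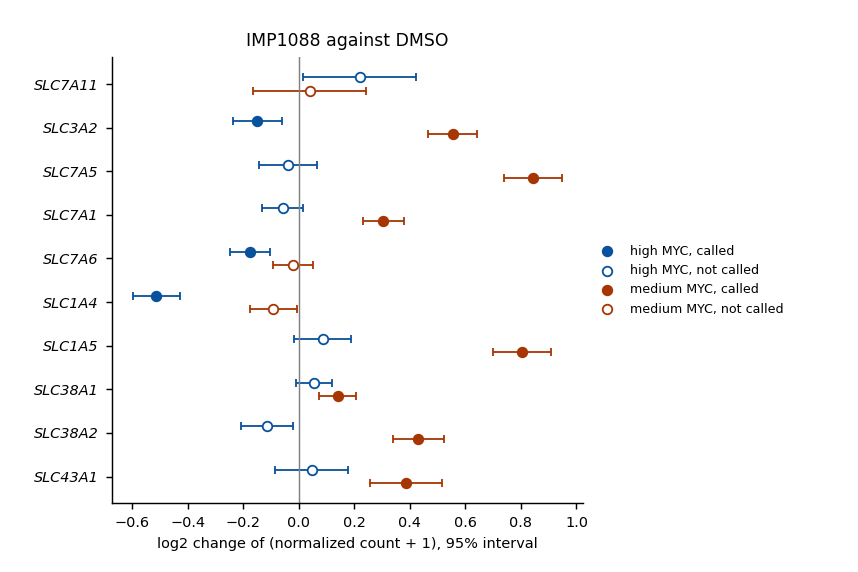
Log2 change with the inhibitor for each transporter at high and at medium MYC, with 95% intervals from limma, before any adjustment for the number of genes. The 7 members called at medium MYC run from 0.14 for SLC38A1 to 0.84 for SLC7A5, and the called changes at high MYC (SLC3A2, SLC7A6 and SLC1A4) are all below 0.

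Among the glutamine carriers, SLC1A5 (ASCT2) had the largest change. It measured 449, 461, 526 and 487 in medium MYC controls and 819, 798, 855 and 886 with the inhibitor, again without overlap. The change was 0.80 (SE 0.05, limma adjusted p = 7.10e-11), or 1.75-fold. At high MYC the controls (1267, 1206, 1122 and 1131) and inhibitor libraries (1269, 1247, 1276 and 1217) overlapped, with a change of 0.09 (limma adjusted p = 0.228). A GC correction made this 0.17 (adjusted p = 0.00149). The responses differed by -0.72 (SE 0.07, limma adjusted p = 4.72e-07). An antisense gene shares 23.4% of the exon bases of SLC1A5, so the same limit on strand applies.

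SLC38A2 (SNAT2), a carrier of glutamine and other small neutral amino acids known to be induced when amino acids run short, measured 2509, 2438, 2252 and 2546 in medium MYC controls. With the inhibitor it measured 3359, 3215, 3253 and 3297. Every inhibitor library lay above every control, with a change of 0.43 (SE 0.04, limma adjusted p = 1.79e-07), 1.35-fold. At high MYC the controls measured 1757, 1825, 2073 and 1944, and the inhibitor libraries 1739, 1786, 1792 and 1685. The change there was -0.12 (limma adjusted p = 0.0588). Leaving out high MYC control replicate 1 (adjusted p = 0.0135) or medium MYC control replicate 3 (adjusted p = 0.0315) made it a call, as did 4 other alternatives, among them the GC correction (change -0.17, adjusted p = 3.17e-05) and the filter at a mean of 100 (0.0473). The difference between responses was -0.55 (SE 0.06, limma adjusted p = 3.94e-06).

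SLC38A1 (SNAT1), the related carrier with the highest counts in this set, had the smallest called rise. Its medium MYC values went from 4492, 4371, 4078 and 4464 to 4932, 4701, 4728 and 4799.6. The groups did not overlap, and the change was 0.14 (SE 0.03, limma adjusted p = 0.00201), 1.10-fold. At high MYC the change was 0.05 (limma adjusted p = 0.224), with means of 6352 ± 189 and 6595 ± 153. The responses differed by -0.09, with a 95% interval from -0.18 to 0.01 (limma adjusted p = 0.284), so a difference in response was not called for SLC38A1.

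SLC1A4 (ASCT1), the serine and alanine carrier, was the member that fell most with the inhibitor. At high MYC it went from 579, 554, 534 and 539 to 415, 383, 380.5 and 366. The lowest control lay above the highest inhibitor library, and the change was -0.51 (SE 0.04, limma adjusted p = 4.04e-09), or 1.43-fold lower. At medium MYC it measured 1752, 1779.9, 1775 and 1794 without and 1608, 1666, 1733 and 1657 with the inhibitor. These groups did not overlap either, but the change of -0.09 (95% interval from -0.18 to -0.01) was not called (limma adjusted p = 0.101). The responses differed by -0.42 (SE 0.06, limma adjusted p = 3.37e-05).

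SLC7A1 (CAT1), the arginine and lysine carrier, rose at medium MYC from 1152, 1175, 1224 and 1180.1 to 1426, 1487, 1544 and 1386. That was a change of 0.30 (SE 0.04, limma adjusted p = 9.48e-07) without overlap. SLC43A1 (LAT3), the facilitative carrier of large neutral amino acids, rose there from 117, 122, 131 and 118 to 155, 172, 159.8 and 152. Its change was 0.39 (SE 0.06, limma adjusted p = 7.09e-05). At high MYC neither was called. The changes there were -0.06 for SLC7A1 (limma adjusted p = 0.233) and 0.05 for SLC43A1 (0.649). The responses differed by -0.36 for SLC7A1 (SE 0.05, limma adjusted p = 3.77e-05) and by -0.34 for SLC43A1 (SE 0.09, 0.0168), the latter at 0.0609 in DESeq2.

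Between the MYC levels all 10 transporters differed among controls, and all 10 did so without overlap. At medium MYC 7 were lower and 3, namely SLC7A11, SLC1A4 and SLC38A2, were higher, with a median log2 change of -0.79. Such differences were common: 76.2% of all genes were called (38.9% higher and 37.3% lower, median 0.02) and 69.2% had groups without overlap. With the inhibitor the same 3 members were higher and the same 7 lower, with a median of -0.53, without overlap for all 10, against 77.5% of all genes called (39.7% higher and 37.8% lower) and 72.6% without overlap.

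SLC7A5 had the largest loss and SLC7A11 the largest gain among the members. SLC7A5 fell from a mean of 4341 ± 171 in high MYC controls to 502 ± 39.6 in medium MYC controls (SD, n = 4 each), 8.65-fold lower (log2 change -3.11, limma adjusted p = 2.15e-22). SLC7A11 went from 169 ± 31 to 1621 ± 191, 9.62-fold higher (3.27, limma adjusted p = 6.79e-18). The highest high MYC control of SLC7A11, 198, lay far below the lowest medium MYC control, 1339. SLC43A1 was 3.61-fold lower at medium MYC (-1.85, limma adjusted p = 5.85e-17). The heavy chain SLC3A2 was 2.43-fold lower (-1.28, limma adjusted p = 4.01e-17), and SLC1A5 changed by -1.30 (limma adjusted p = 5.58e-16). Smaller losses were those of SLC7A1 (-0.91), SLC7A6 (-0.66) and SLC38A1 (-0.55). SLC1A4 was 3.22-fold higher at medium MYC (1.69, limma adjusted p = 1.54e-19), and SLC38A2 was higher by 0.36 (limma adjusted p = 2.00e-07).

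Markers of other cell types moved with the MYC level in part. The summed fibroblast markers (COL1A1, COL1A2, DCN and PDGFRB) ran from 122 to 134 in high MYC controls and from 571 to 649 in medium MYC controls, and both of the 2 that were tested were higher, while DCN was at 0 in every library. Myeloid markers ran from 118 to 136 and from 263 to 290.5, with 1 of 2 tested higher. The summed B cell markers ran from 23284 to 23454 and from 37963 to 38720.2, with 3 of 5 higher and 2 lower. T cell markers ran from 62.9 to 71.5 and from 66.8 to 93.6, with 1 of 2 tested higher. Epithelial markers ran from 56.5 to 70.8 and from 60.5 to 78.8, but 1 of the 2 tested was higher at medium MYC and 1 lower. These were CDH1, at means of 0.19 and 55.4 normalized counts, and EPCAM, at 62.1 and 13.1, both named after their values were seen, while KRT18 was at 0 in every library. The part of these markers in the transporters' values was not tested.

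**Figure D3:**
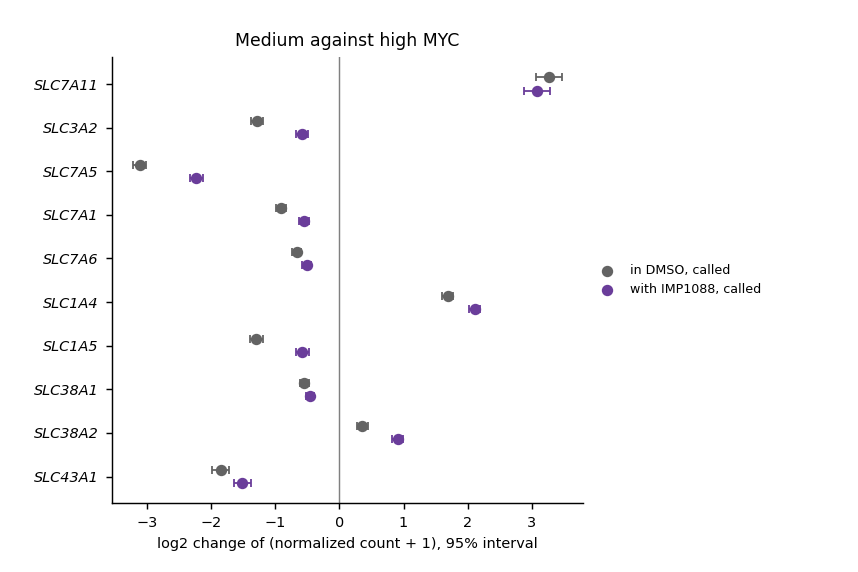
Log2 difference of medium against high MYC for each transporter, among controls and with the inhibitor, with 95% intervals from limma. Values run from -3.11 (SLC7A5) to 3.27 (SLC7A11) among controls, and SLC7A5, SLC3A2 and SLC1A5 lie nearer to 0 with the inhibitor.

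Measured against the high MYC control mean, the inhibitor at medium MYC left each of the 7 lower transporters below it. The medium MYC controls enter both this comparison and the response to the inhibitor. SLC7A5 stood at 11.6% of that mean in medium MYC controls and at 20.8% with the inhibitor. SLC1A5 went from 40.7% to 71.1%, and SLC3A2 from 41.1% to 60.3%. SLC43A1 went from 27.6% to 36.1%, SLC7A1 from 53.2% to 65.7% and SLC38A1 from 68.5% to 75.4%. SLC7A6 stood at 63.2% and 62.3%. SLC38A2 was already above the high MYC mean, at 128%, and went to 173%. With the inhibitor in both groups SLC3A2 was lower at medium MYC by 0.58 (change -0.58, limma adjusted p = 4.42e-11) and SLC7A5 by 2.23 (-2.23, limma adjusted p = 4.51e-20).

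Levels can be compared between genes only per length, so counts were divided by the kilobases of each gene's exons. In high MYC controls SLC7A5 was highest at a mean of 915 normalized counts per kb, then SLC38A1 at 634 and SLC1A5 at 355. SLC7A1 (289) and SLC38A2 (288) did not differ beyond their spread, nor did SLC3A2 (217) and SLC7A6 (212). SLC43A1 (125), SLC1A4 (79.5) and SLC7A11 (17.5) were lowest. The order was different in medium MYC controls, led by SLC38A1 (434), SLC38A2 (369), SLC1A4 (256) and SLC7A11 (168), with SLC7A5 at 106 and SLC43A1 last at 34.5. There SLC7A11 (SD 19.8) did not differ beyond its spread from SLC7A1 (154) and SLC1A5 (144). Per kb of the longest transcript SLC7A11 ranked 5, next to SLC1A5 (167). With the inhibitor at medium MYC, SLC38A2 (497) and SLC38A1 (478) led, followed by SLC1A5 (252 ± 11.8) and SLC1A4 (240.1 ± 7.41), which did not differ beyond their spread. The place of SLC3A2 depends on the length used: per kb of its longest transcript it measured 506 in high MYC controls and 208 in medium MYC controls, ranks 3 and 4 in place of 6 and 9. With the inhibitor at medium MYC it measured 305 by that length, rank 3 in place of 9, next to SLC1A5 (291) and SLC1A4 (288).

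The 3 light chains among the members stood in different proportions at the 2 MYC levels. SLC7A7 (y+LAT1), a further light chain of SLC3A2 with means of 365 normalized counts in high MYC controls and 243 in medium MYC controls, is not part of these shares and ratios. Of the summed SLC7A5, SLC7A6 and SLC7A11 level per kb, SLC7A5 made up 80.0% ± 0.876 in high MYC controls and 26.0% ± 2.68 in medium MYC controls (SD, n = 4). The share of SLC7A11 was 1.54% ± 0.315 and 41.2% ± 3.88, and that of SLC7A6 was 18.5% ± 0.570 and 32.8% ± 1.36. Per longest transcript, the medium MYC control shares of SLC7A11 (38.2% ± 3.72) and SLC7A6 (36.6% ± 1.38) overlapped, so their order depends on the length used. With the inhibitor at medium MYC the SLC7A5 share was 38.5% ± 2.24, from 35.2% to 40.3%, above each of the 4 controls, which reached 30%. The SLC7A11 share there was 34.8% ± 2.40, and the SLC7A6 share 26.7% ± 0.793. At high MYC the SLC7A5 share was 81.1% ± 0.302 with the inhibitor. SLC7A6 enters every share and the ratios to SLC3A2, and its values are uncertain because SLC7A6OS shares 44.4% of its exon bases.

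**Figure D4:**
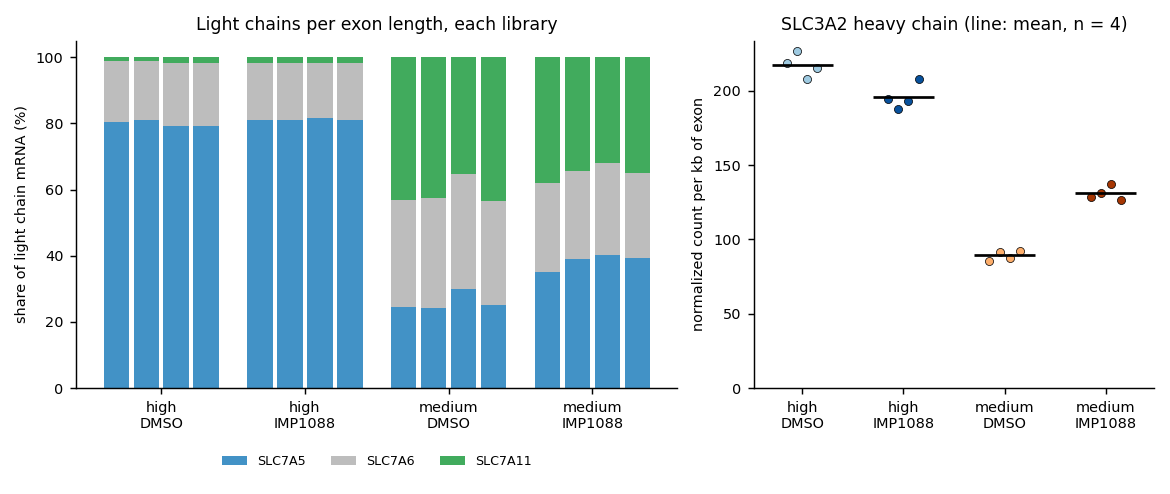
Share of SLC7A5, SLC7A6 and SLC7A11 in their summed level per kb of exon, in each library by group. SLC7A5 lies between 79.2% and 81.6% in the 8 high MYC libraries and between 24.3% and 40.3% in the 8 medium MYC libraries.

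The 3 light chains together stood at 5.27 ± 0.192 times SLC3A2 per kb in high MYC controls and at 4.57 ± 0.194 times in medium MYC controls. With the inhibitor the ratio was 5.61 ± 0.196 at high MYC and 3.77 ± 0.137 at medium MYC. At medium MYC the highest inhibitor library (3.92) lay below the lowest control (4.42). Per longest transcript the ratios were 2.43, 2.58, 2.12 and 1.73 in the order high control, high inhibitor, medium control and medium inhibitor. These shares and ratios are descriptions with no test of their own.

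Across the 16 libraries the members' profiles were most alike for SLC7A5 and SLC43A1 (Pearson r = 0.996), SLC7A5 and SLC7A1 (0.992), and SLC3A2 and SLC7A1 (0.989). The least alike were SLC7A11 and SLC43A1 (-0.981). The libraries fall into 2 MYC levels, which set most of each r, so these values describe the 4 groups and carry no p. Among 10893 other tested genes with a mean of at least 50, those most like each member over the same libraries were the following. For SLC3A2 they were GPT2 (r = 0.988), a mitochondrial alanine aminotransferase, and SHMT2 (0.986), a mitochondrial enzyme of serine and glycine exchange. GPT2 (0.992) was also next to SLC7A1, after TFDP2 (0.995). For SLC7A5 they were IGHM (0.998) and MZB1 (0.997), genes of immunoglobulin production, and for SLC1A5 XBP1 (0.991), a factor of the unfolded protein response, and HM13 (0.986). For SLC7A11 they were SPPL2A (0.998) and TWSG1 (0.997), and for SLC1A4 SEMA7A (0.998). SLC7A6 was nearest to FCHSD2 (0.992) and MLEC (0.991), SLC38A1 to HNRNPA1 (0.997) and PUS7L (0.996), SLC38A2 to TIFA (0.981) and TTF2 (0.980), and SLC43A1 to NRP2 and DANCR (both 0.998).

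Other genes of amino acid supply were read from lists. Of 39 other amino acid transporters, 16 passed the filter, and their response was mixed. At medium MYC 4 rose and 2 fell, at high MYC 3 rose and 3 fell, and the response differed for 3. Of all tested genes, 26.3% were called at medium MYC, 26.8% at high MYC and 8.63% for the difference. SLC6A9 (GLYT1), the glycine transporter, rose at medium MYC. It measured 12.5, 13.7, 4.38 and 10.7 in medium MYC controls and 73.4, 89.4, 97.1 and 93.8 with the inhibitor (change 3.07, SE 0.26, limma adjusted p = 1.07e-08). At high MYC its groups overlapped, and the responses differed by -3.39 (SE 0.37, limma adjusted p = 2.06e-06). SLC16A10 (TAT1), a carrier of aromatic amino acids, rose by 0.98 at medium MYC (limma adjusted p = 2.65e-05). SLC43A2 (LAT4), a relative of SLC43A1, rose at high MYC by 0.29 (limma adjusted p = 3.78e-04), with a change of 0.00 at medium MYC that was not called.

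Of 26 genes on a GCN2 and ATF4 list, 25 passed the filter. At medium MYC 18 rose and 3 fell with the inhibitor, with a median of 0.49, and at high MYC 1 rose and 6 fell, with a median of -0.06. At high MYC the 7 calls among the 25 were close to the 26.8% of all tested genes called there. At medium MYC 26.3% of all tested genes were called. The response differed for 18 of the 25, all with the lower value at high MYC, against 8.63% of all tested genes. This list, too, was chosen with earlier results of these data known. ATF4 measured 1522, 1514, 1623 and 1521 in medium MYC controls and 1956, 1915, 2029 and 1940.0 with the inhibitor, a change of 0.34 (SE 0.03, limma adjusted p = 6.93e-08). ASNS, which makes asparagine, rose by 1.09 and differed in response by -1.16 (limma adjusted p = 7.85e-10). PSAT1 and PHGDH, enzymes of serine synthesis, rose by 1.81 and 0.57 at medium MYC, and both fell at high MYC, with changes of -0.20 and -0.29. The fall of PSAT1 was not called without high MYC control replicate 3 (adjusted p = 0.0606) or high MYC inhibitor replicate 1 (0.0554). ALDH1L2, a mitochondrial folate enzyme, rose by 3.18 (limma adjusted p = 8.50e-14). DDIT3 (CHOP), a stress factor downstream of ATF4, rose by 1.67 (limma adjusted p = 7.82e-07). TRIB3, another ATF4 target, went the other way, with changes of -0.50 at high MYC (limma adjusted p = 1.68e-05) and -0.35 at medium MYC (8.34e-04). CHAC1, which degrades glutathione, had low counts in controls: 9.04, 5.62, 3.31 and 0 at high MYC and 9.39, 17.1, 13.1 and 8.21 at medium MYC. With the inhibitor at high MYC it measured 5.38, 12.2, 6.11 and 11.4, which overlapped its controls. It rose by 3.20 at medium MYC (limma adjusted p = 2.33e-05) and its difference of -2.02 had an adjusted p of 0.0671. That difference was called in 7 alternatives, among them edgeR (-2.44, adjusted p = 0.0112), DESeq2 (-2.43, 1.14e-04) and a fit without high MYC control replicate 4 (-2.70, 3.48e-04).

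**Figure D5:**
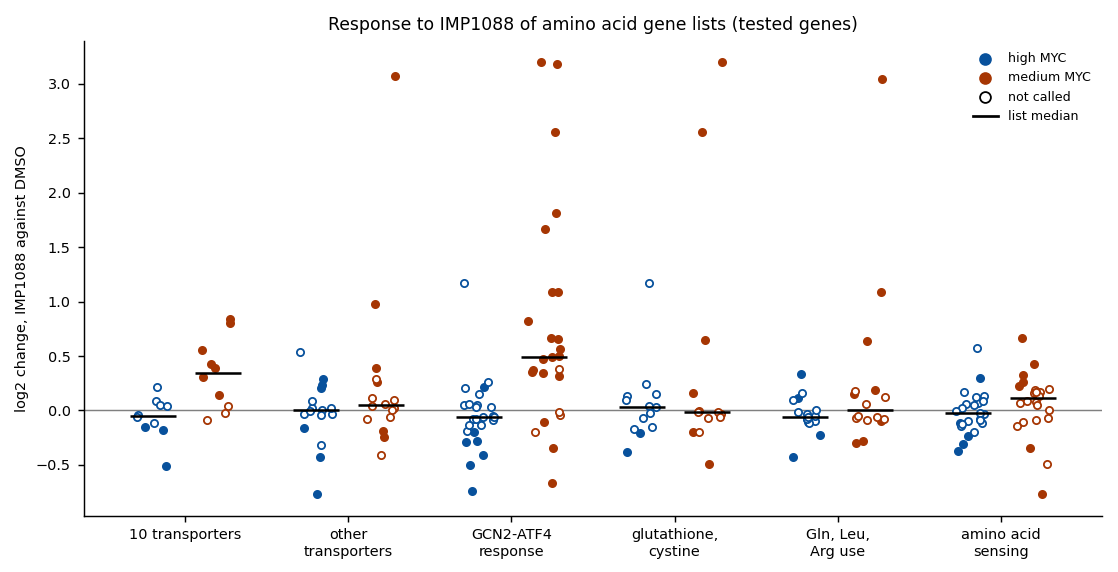
Log2 change with the inhibitor of each tested gene, by list, at high and at medium MYC. Filled points are called genes, open points are genes not called, and lines are list medians. Among called genes at medium MYC, the members (7 higher, 0 lower) and the GCN2 and ATF4 list (18 higher, 3 lower) lean to higher values. The other lists are mixed.

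Genes that handle the transporters' cargo were read next, beside the 26.3% of all genes called at medium MYC and 26.8% at high MYC. Of 13 genes of cystine and glutathione use, 4 rose and 2 fell at medium MYC, and none rose and 2 fell at high MYC. Among them CTH, which makes cysteine from cystathionine, rose by 2.56 at medium MYC (limma adjusted p = 2.55e-07). Its medium MYC controls were low, at 13.6, 11.1, 9.63 and 8.21. CBS, the step before CTH, rose by 0.64 at medium MYC and fell at high MYC (change -0.38). Of 16 tested genes that use glutamine, leucine or arginine, 5 rose and 3 fell at medium MYC. ASS1, the enzyme that makes argininosuccinate for arginine synthesis, rose by 3.05 (SE 0.10, limma adjusted p = 3.40e-15), with a change of 0.00 at high MYC that was not called. GPT2 rose by 0.64 (limma adjusted p = 1.86e-06). The lists overlap, so their counts are not independent. CHAC1 and CTH among the cystine and glutathione genes are also on the GCN2 and ATF4 list. ASNS is on that list and among the genes of glutamine, leucine and arginine use. Of the 4 rises among the cystine and glutathione genes, that of GPX4 (0.16) lost its call in 12 of 31 alternatives. Of 24 genes of amino acid sensing upstream of mTORC1, 5 rose and 2 fell at medium MYC. SESN2, a leucine sensor, rose by 0.67 (limma adjusted p = 4.20e-07), and MIOS, a subunit of the GATOR2 complex, fell at both levels, with changes of -0.76 at medium MYC and -0.38 at high MYC.

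On GRCh38 with GENCODE release 29, positions are as follows, by identifier. SLC7A11 (ENSG00000151012) is at chr4:138164097-138242349 and SLC7A5 (ENSG00000103257) at chr16:87830023-87869488. SLC3A2 (ENSG00000168003) is at chr11:62856102-62888875, on the same chromosome as SLC43A1 (ENSG00000149150, chr11:57484534-57515786). SLC38A1 (ENSG00000111371, chr12:46183063-46270017) and SLC38A2 (ENSG00000134294, chr12:46358189-46372867) are neighbours on chromosome 12. SLC7A6 (ENSG00000103064) is at chr16:68264516-68301823, SLC7A1 (ENSG00000139514) at chr13:29509410-29595688, SLC1A4 (ENSG00000115902) at chr2:64988477-65023865 and SLC1A5 (ENSG00000105281) at chr19:46774883-46788594. SLC7A5 has 2 pseudogenes named after it, which could share its reads. The antisense gene SLC7A11-AS1 shares 8.97% of the exon bases of SLC7A11, and the antisense gene AC126696.2 shares 5.71% of those of SLC7A5. AC020978.9, also on the opposite strand, shares 11.1% of those of SLC7A6. The same limit on strand applies to these genes.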

How the data were processed

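The authors deposited 1 table of 58051 gene identifiers by 16 libraries, a non-negative signal they name normalized counts. The submitters' processing notes name STAR 2.5.2a, RSEM 1.2.31, DESeq2 1.16.1 and GRCh38. The annotation and the use of strand are not given in the sources used here. Within each library, 100% of values above 0 were whole reads times 1 step (within 0.1%), so depth could be recovered (8755296 to 13858534 reads).

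limma 3.58.1 in R 4.3.3 was fitted to log2(value + 1) for 13765 genes whose mean was 10 or more, with a mean trend, 4 group means in 1 fit and Benjamini-Hochberg adjustment, two-sided. The inhibitor comparisons and their difference share libraries, as do the MYC level comparisons. Alternatives covered edgeR 4.0.16 and DESeq2 1.42.0 on recovered reads, scalings, pseudocounts of 0.1 and 10, filters, blocks, a GC correction and leaving out each library. The main limma fit was tested on simulated data, for the inhibitor response at medium MYC and the difference in response only. Symbols matched 56948 identifiers and GENCODE release 29 matched 57447.

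Members and lists were chosen with earlier results of these data known. Besides the members, the genes named were up to 4 called genes per list with the smallest p for the difference, 4 fixed ATF4 list genes, and the 2 most similar genes per member; some of these, and 1 marker gene, are not reported here.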

Additional observations from a re-analysis of the deposited data

Results flagged for a closer look

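In 1 of 40 member groups, 1 library stood apart from the other 3: SLC7A11 in high MYC inhibitor replicate 4 measured 203 against 191 to 192, a gap of 0.933 of the group's range. Chance flags about 1 in 20 groups. The rule did not flag medium MYC control replicate 3, which was lowest of its group for SLC7A11 (1339), SLC38A1 (4078) and SLC38A2 (2252). It was highest for SLC7A5 (559), SLC1A5 (526), SLC43A1 (131), SLC7A1 (1224) and SLC7A6 (1032), and neither for SLC3A2 and SLC1A4. Leaving out any 1 library kept 7 members called at medium MYC. For 28 of the genes chosen for naming, 8 of them members, the inhibitor's effect differed with MYC level by limma's test of the difference (log2, high minus medium MYC). The members were named whatever their p, but were chosen with earlier results of these data known. Apart from the members, ATF4 and DDIT3, the genes were those of each list with the smallest p for this same difference. Such genes add no evidence, and the lists hold further called genes. The members' differences were -0.70 for SLC3A2, -0.88 for SLC7A5, -0.36 for SLC7A1, -0.16 for SLC7A6, -0.42 for SLC1A4, -0.72 for SLC1A5, -0.55 for SLC38A2 and -0.34 for SLC43A1. Among other transporters they were -3.39 for SLC6A9, -0.96 for SLC16A10 and 0.29 for SLC43A2. Among sensing genes they were 0.39 for MIOS, -0.61 for SESN2, -0.31 for DEPDC5 and -0.24 for SEC13. On the ATF4 list they were -2.01 for PSAT1, -3.24 for ALDH1L2, -1.16 for ASNS, -0.85 for PHGDH, -0.42 for ATF4 and -1.41 for DDIT3. For glutathione and amino acid use they were -1.02 for CBS, -2.41 for CTH, -0.37 for GPX4, 0.74 for CHAC2, -3.04 for ASS1, -0.73 for GPT2 and -0.31 for BCAT1. The CHAC2 difference lost its call in 6 alternatives, 5 of them fits without 1 library (adjusted p from 0.0506 to 0.0635), and that of SLC43A2 without medium MYC control replicate 2 (0.0523). The libraries for CHAC2 were high MYC control replicate 1, high MYC inhibitor replicate 4, medium MYC control replicates 1 and 4 and medium MYC inhibitor replicate 4.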

How the results depend on the processing

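Across 30 or 31 alternatives the number of transporters called ran from 7 to 8 at medium MYC and from 6 to 8 of 10 for the difference in response, and it was 10 in both MYC level comparisons. At high MYC it ran from 2 to 5 around 3. It was 5 with a replicate block nested in MYC level, which added SLC38A2 (adjusted p = 0.047) and SLC7A11 (0.0462); the cause was not tested. The replicate numbers did not pair the libraries: same-numbered libraries correlated between -0.154 and 0.239 in their deviations, and 1 of 16 correlated best with its own number. The sign changed only for changes that were not called: SLC7A6 at medium MYC (0.0071 with equal library totals, 0.0216 with quantile normalization), SLC7A5 at high MYC (0.0064 with quantile normalization, 0.0482 with the GC correction, alone or with the replicate block) and SLC7A11 at medium MYC (-0.0444 with the GC correction, alone or with the replicate block, and from -0.0507 to 0.0770 without 1 library). Of the members' log2 changes, 1476 kept direction and side of the threshold, 12 became calls and 23 lost a call, 19 of the latter for the difference of SLC7A6. SLC1A4 at medium MYC was called lower with the GC correction (-0.10, adjusted p = 0.0396). With equal library totals the split over all genes at medium MYC was 1962 higher and 1658 lower, against 1606 and 2012, and with quantile normalization that at high MYC was 1727 and 1770, against 1442 and 2247.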
